A study of Mus musculus with 12 samples.

Results

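Cadherins are calcium-dependent adhesion proteins of the cell surface. Classical cadherins bind the same kind of cadherin on a neighbouring cell and are tied to actin inside the cell by the catenins. Protocadherins have cadherin repeats outside the cell but other tails inside it, and many are known from the nervous system. The clustered protocadherins are encoded by the Pcdha, Pcdhb and Pcdhg gene arrays on mouse chromosome 18. In the Pcdha and Pcdhg arrays each variable first exon is spliced to constant exons that the array shares, whereas each Pcdhb gene stands alone. The members described here are the protein-coding genes whose symbol is Cdh or Pcdh followed by a digit or a lower-case letter, without Cdh5, the vascular endothelial cadherin. There were 96 such genes among 21900 protein-coding genes of RefSeq. They comprise 17 classical cadherins, 10 other cadherins, 12 single protocadherins, 14 Pcdha genes, 22 Pcdhb genes and 21 Pcdhg genes.

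Binding of Runx1b, an isoform of the transcription factor RUNX1, was mapped by DamID-seq in haemogenic endothelium, the endothelium that gives rise to blood cells. In DamID a protein is fused to the Dam methylase of bacteria, and DNA methylated at GATC near the fusion is amplified and sequenced. Mouse embryonic stem cells of strain 129 were made into embryoid bodies, and FLK1+ cells from these spent 2 days in liquid blast culture. The day of the embryoid bodies and the length of the blast culture were the same for every library of both lines. The 6 libraries of the line iRunx1b::Damko carry the Runx1b::Dam fusion and the 6 of the line iDamko carry Dam alone, and both lines are runx1-/-. Each line had 3 biological replicates and 3 libraries called technical replicates, with 2 libraries sorted by flow cytometry for cKIT+ TIE2+ CD41- cells and 4 selected magnetically for FLK1+ cells.

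The deposited table gives 1 read count for each gene with at least 1 region, over 8133 regions and 5867 genes of any type in the mm9 build. It holds no value per library, so depth per library is unknown, nothing has a replicate error, and no level in Dam cells can be set beside a member's reads. All counts below therefore describe 1 set of regions, and the reads per kilobase (kb) are signal inside regions and not an enrichment over Dam. No test was made between classes of genes, since genes are not replicates. A table of binding holds no RNA, so the cell type could not be checked by expression. Intervals are 95% exact Poisson intervals of a read count and cover counting error only, since amplified reads are not independent molecules.

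Of the 96 members, 16 (16.7%) had a region, against 4572 of 21900 (20.9%) protein-coding genes at large. By class the share ranged from 0 to 50%. Single protocadherins had a region in 6 of 12 cases (50%), other cadherins in 3 of 10 (30%) and classical cadherins in 5 of 17 (29.4%). In the clusters it was 1 of 14 Pcdha genes (7.14%), 0 of 22 Pcdhb genes and 1 of 21 Pcdhg genes (4.76%). Outside the clusters 14 of 39 members (35.9%) had one, and inside them 2 of 57 (3.51%). Spans of the Pcdha genes overlap one another, as do those of the Pcdhg genes, so a region there may be listed under 1 symbol only. The shares of both clusters, and the 16.7% and 3.51% that include them, therefore cannot be read as counts of single genes.

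Long genes had a region more often, so length stands beside each share. When protein-coding genes were placed in 10 classes of equal size by length, 3.15% of the shortest class and 45.3% of the longest had a region. Among genes of the same length classes the share was 30% for the single protocadherins, 27.4% for the other cadherins and 39.5% for the classical cadherins. Set against these shares, about 3.60 of the 12 single protocadherins, 2.74 of the 10 other cadherins and 6.71 of the 17 classical cadherins would have a region, where 6, 3 and 5 had one. The differences were not tested, since each class holds few genes and genes are not replicates. None of the 3 is called different from genes of like length, and none is called alike. For all members outside the clusters the share of like genes was 33.5%, close to their 35.9%. For the clustered genes it was 29.4%, but there the spans that set the length class overlap one another. Of the 18 members outside the clusters that fell in the longest class, from 109 kb upwards, 7 (38.9%) had a region. The 11 without one included Cdh13, at 1185 kb the gene of the lipid-anchored T-cadherin, and Pcdh15, at 1554 kb the gene of a hair-cell tip link protein.

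**Figure D1:**
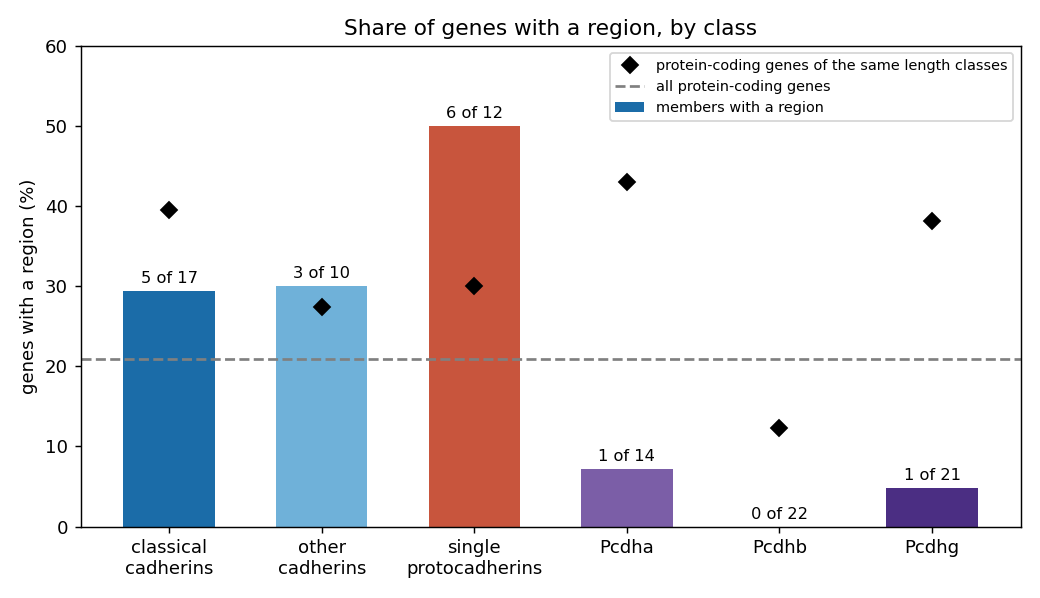
Share of genes with a region (%) in each class of cadherin and protocadherin genes (bars, with counts), beside the share among protein-coding genes of the same length classes (diamonds) and among all protein-coding genes (dashed line, 20.9%). The bar of the single protocadherins is at 50% and its diamond at 30%, a difference of about 2 genes, and the bars of the 3 clusters lie below their diamonds. Spans of the Pcdha genes overlap one another, as do those of the Pcdhg genes, so those bars do not count separate genes.

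The signal at the members was more often low than high. Over the 16 members with a region it had a median of 531 reads per kb, from 37.1 to 1307, against a median of 683 over all listed genes, whose quartiles were 515 and 918. Only 4 members lay above that median, namely Cdh16, Pcdh12, Pcdh7 and Pcdhga11, and 12 lay below it. Most of the reads lay at Pcdhga11 and Pcdh7, which together had 33853 of the 54532 reads counted at members (62.1%). Read totals grow with the length of regions, which was 17.4 kb at Pcdhga11 and 14.1 kb at Pcdh7. Of the Pcdh7 reads 4692 lay in a region shared with another gene. Neighbours in the order of signal often had intervals that met, such as Cdh16 and Pcdh12, or Pcdh17, Cdh2 and Cdhr3.

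**Figure D2:**
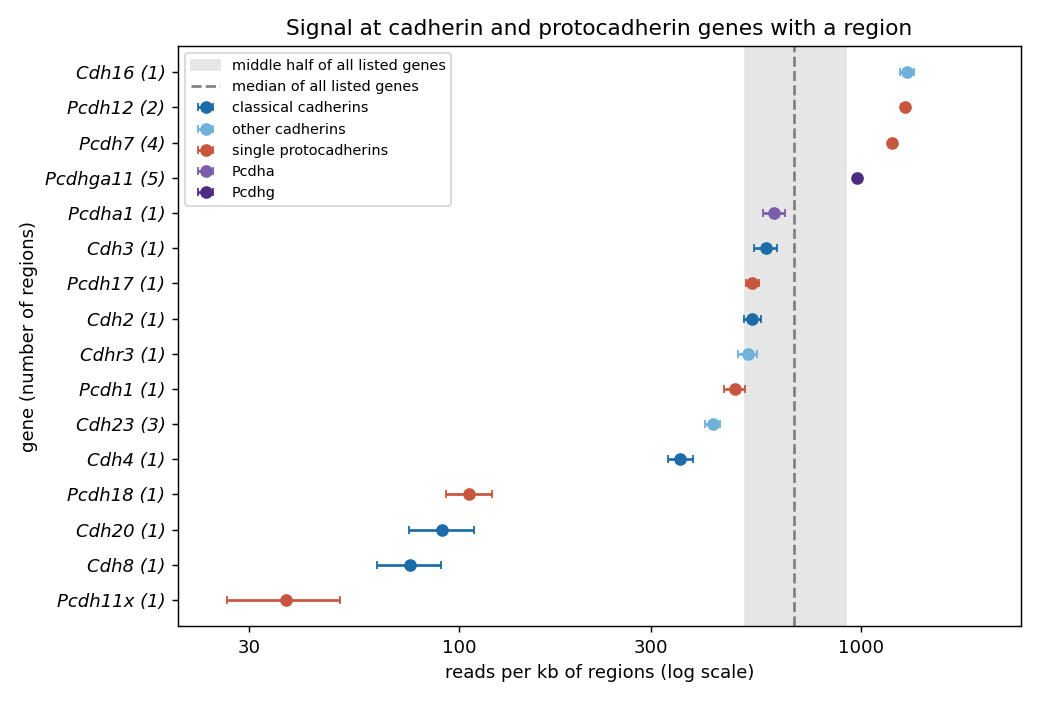
Reads per kb of regions (log scale) for the 16 members with a region, with 95% Poisson intervals of the count and the number of regions after each name. The grey band spans the quartiles (515 and 918) and the dashed line the median (683) of all listed genes. To the right of the band stand 4 members and inside it 5, while 3 lie to its left at 356 to 486 and 4 far to the left, under 110.

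Among classical cadherins the type I genes, which include the main epithelial and neural cadherins, had a region in 3 of 5 cases and the type II genes in 2 of 12. Genes of the same length classes had one in 33.7% of cases for type I and 41.9% for type II, of which 10 genes fall in the longest class. With so few genes the types are described and not compared. Cdh2, the gene of N-cadherin of neural and mesenchymal cells, had 1616 reads in its 1 region, chr18:16897208-16900208, which is 538 reads per kb (interval 513 to 565). Cdh3, the gene of placental cadherin, had 929 reads at chr8:109083298-109084898, or 580.3 reads per kb (544 to 619). This is 0.590 of the median of listed genes on chromosome 8, which at 984 reads per kb was the highest of the autosomes. What the chromosome adds to a value was not tested. Cdh4, the gene of retinal cadherin, had 784 reads at chr2:179305124-179307324, or 356 reads per kb (332 to 382).

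The type II genes with a region, Cdh8 and Cdh20, both known from the nervous system, had far fewer reads. Cdh8 had 117 reads at chr8:101862748-101864298, or 75.4 reads per kb (62.4 to 90.4), the lowest value of the 270 listed genes on that chromosome. Cdh20 had 118 reads at chr1:106821263-106822563, or 90.7 reads per kb (75.1 to 109). All 5 classical cadherins had a single region that was assigned to no other gene, and all 5 lay below the median signal of listed genes. Cdh1, the gene of epithelial cadherin and the neighbour of Cdh3, had no region, and neither did Cdh15, the gene of muscle cadherin. The type II genes without one were Cdh6, Cdh7, Cdh9, Cdh10, Cdh11, Cdh12, Cdh18, Cdh19, Cdh22 and Cdh24.

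Among the other cadherins Cdh16, the gene of kidney-specific cadherin, had the highest signal of any member. Its 1 region, chr8:107124898-107126748, held 2419 reads, or 1307 reads per kb (1255 to 1360.0), more than 92.0% of listed genes. Against its own chromosome it was less extreme, at 1.33 times the median and above 71.5% of the listed genes there. The nearest other region, 498 kb away, was one of Cdh5, whose gene had 1601 reads per kb.

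Cdh23, the gene of the other tip link cadherin of hair cells, had 2079 reads in 3 regions within chr10:59809870-60042120, or 428 reads per kb (410.2 to 447). The first 2 regions were also assigned to 4632428N05Rik, now named Vsir, an immune checkpoint gene that lies within the span of Cdh23 in RefSeq. They held 1492 of the reads (71.8%) at 473 reads per kb (449.6 to 498). The last region lay 223 kb further on, was assigned to Cdh23 alone and held 587 reads at 345 reads per kb (318 to 374). Cdhr3, whose human protein is a receptor for rhinovirus C in the airway, had 1282 reads in its 1 region, chr12:33712129-33714579, or 523 reads per kb (495 to 552). Cdh13, Cdh17, Cdh26, Cdhr1, Cdhr2, Cdhr4 and Cdhr5 had none.

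Among the single protocadherins the signal ranged from 37.1 to 1291 reads per kb. Pcdh12, the protocadherin gene known from endothelial cells, had 6457 reads in 2 regions within chr18:38437908-38445058. They lay 2.15 kb apart, and their 1291 reads per kb (1259.6 to 1323) exceeded 91.6% of listed genes and 90.6% of those on chromosome 18. Pcdh12 is 17.3 kb long in RefSeq, so it is among the shorter members with a region.

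Pcdh7, a protocadherin gene with a long span, had 16800 reads in 4 regions spread over 62.3 kb, chr5:58107479-58169779, or 1195 reads per kb (1177 to 1214). The first of these, 7150 bp wide, was also assigned to the long intergenic RNA gene 4932441J04Rik and held 4692 reads, or 656 reads per kb (637 to 675). The other 3 regions were assigned to Pcdh7 alone and together held 12108 reads at 1754 reads per kb (1723 to 1786). The signal of Pcdh7 thus lay mainly in the narrower regions that it did not share. The nearest region of any other gene, that of Stim2, was 3716 kb away from the first.

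**Figure D3:**
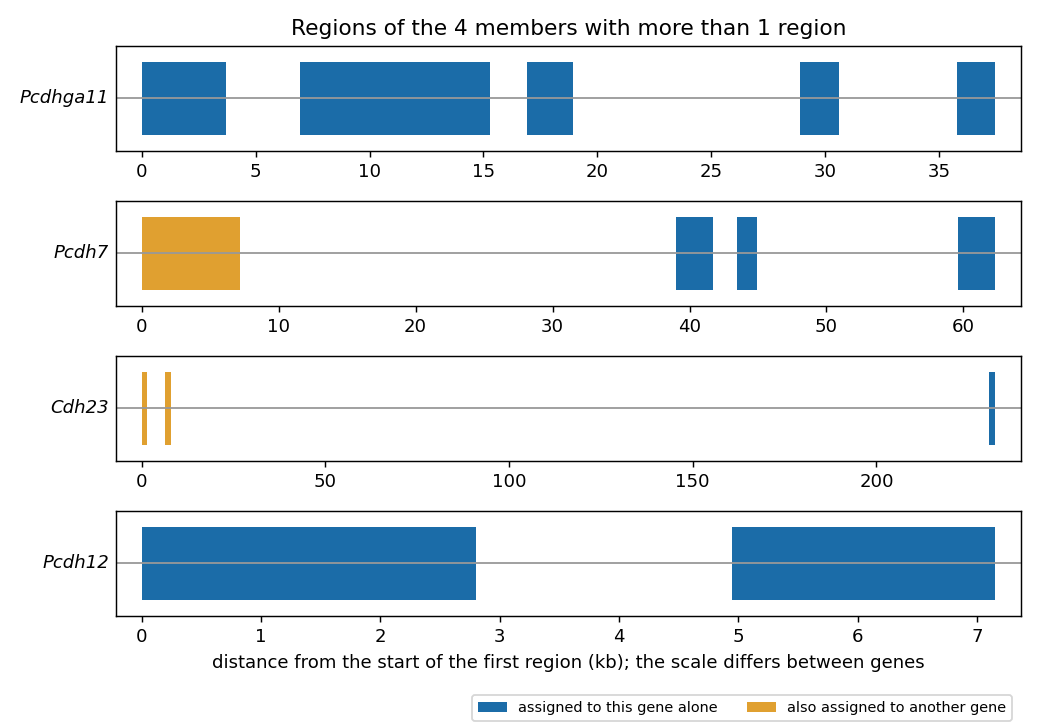
Regions of the 4 members with more than 1 region, drawn as distance in kb from the start of the first region, with a separate scale for each gene. Orange regions were also assigned to another gene. The regions of Pcdhga11 lie within 37.5 kb and those of Pcdh7 within 62.3 kb, whereas the last region of Cdh23 stands 223 kb from the others.

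The remaining 4 single protocadherins with a region had 1 each, assigned to no other gene. Pcdh17 had 2531 reads in a region of 4700 bp, chr14:84843526-84848226, or 538 reads per kb (518 to 559.8). Pcdh1, an epithelial protocadherin gene of the airway, had 1142 reads at chr18:38332308-38334658, or 486 reads per kb (458 to 515). Both lay below the median of listed genes, and Pcdh17 was at 0.623 of the median of chromosome 14. Pcdh18 had 223 reads at chr3:49544752-49546852, or 106 reads per kb (92.7 to 121). Pcdh11x had 39 reads at chrX:117816086-117817136, or 37.1 reads per kb (26.4 to 50.7). Chromosome X as a whole had a low median of 160.5 reads per kb, and Pcdh11x was at 0.231 of it. Pcdh8, a gene of paraxial mesoderm in the gastrula, had no region, and neither had Pcdh9, Pcdh10, Pcdh15, Pcdh19 or Pcdh20.

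The clustered genes had 6 regions in all, under 2 symbols. Pcdhga11 had 17053 reads in 5 regions spread over 37.5 kb, chr18:37965458-38002908, or 977 reads per kb (962 to 992), above 78.3% of listed genes. Of all listed genes 155 had 5 or more regions. Regions covered 17.4 kb of the 37.5 kb, and the widest measured 8350 bp, as against a median width of 2100 bp over all regions. None of the 5 was assigned to another symbol. Pcdha1 had 943 reads in a single region, chr18:37337558-37339108, or 608 reads per kb (569.8 to 648). That region was also assigned to the long intergenic RNA gene Gm10544, which had the same 943 reads.

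These symbols cannot be read as single genes of an array. In RefSeq the spans of all 14 Pcdha genes overlap another Pcdha gene, and the spans of the other 20 Pcdhg genes all overlap that of Pcdhga11. The table can assign 1 region to several symbols, as it did for 4 Ugt1a symbols, another array of alternative first exons. No source used here says whether its annotation held further Pcdha and Pcdhg symbols. With each of the 3 clusters counted as 1 locus, a count chosen after the data were seen, 16 of 42 loci (38.1%) had a region. Other genes were not grouped into loci, so the only share at large is the 20.9% of single protein-coding genes. The Pcdhb genes do not overlap one another and have a median length of 3.42 kb, and genes of their length classes had a region in 12.3% of cases. They lie between the Pcdha and Pcdhg arrays in RefSeq. The table holds 0 regions in the 626 kb between the Pcdha1 region and the first region of Pcdhga11. Chromosome 18 as a whole held 2.94 regions per Mb, and the nearest region on the other side of Pcdha1 was 451 kb away.

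The Pcdhg array lies at one end of a stretch with many regions. From the first region of Pcdhga11 to the last of Pcdh12, a distance of 479.6 kb, there were 14 regions, of which 8 were those of Pcdhga11, Pcdh1 and Pcdh12. The other 6 were assigned to Diap1, Arap3 and AC133646.1. The nearest region of Diap1, a formin gene, was 4.85 kb from the last region of Pcdhga11. This stretch, singled out after the data were seen, held 29.2 regions per Mb, against 2.94 per Mb over the 85.8 Mb of chromosome 18 between its outermost regions.

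Of 26 distinct regions at members, 4 were assigned to a further gene, 2 of them at Cdh23 and 1 each at Pcdh7 and Pcdha1, and none to a pair of members. Among all regions of the series 681 of 8133 (8.37%) were assigned to more than 1 gene. A single region was held by 12 of the 16 members (75%), against 72.3% of all listed genes. With 2 or more regions required, 4 members remained, namely Cdh23, Pcdh7, Pcdh12 and Pcdhga11, or 4.17% of 96 against 6.40% of protein-coding genes.

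The 4 members with the lowest signal, Pcdh18, Cdh20, Cdh8 and Pcdh11x, were all under 110 reads per kb, as were 171 of 5867 listed genes (2.91%). This level was chosen after the values were seen. Of those 171 genes 123 lay on chromosome X, whereas 3 of the 4 members lay on autosomes. The regions of the 4 stood far from any other region, by 1476 kb for Pcdh18, 825 kb for Cdh20, 3978 kb for Cdh8 and 1084 kb for Pcdh11x. Cdh2 and Pcdh17 were as isolated, at 1672 and 2309 kb, and did not share the low signal. The 5 other members with a single unshared region, Cdh3, Cdh4, Cdh16, Cdhr3 and Pcdh1, had another region within 498 kb, and none was under 110 reads per kb. Pcdh7, with 4 regions, is outside these counts. Its regions stood at least 3716 kb from any region of another gene, and it had 1195 reads per kb.

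Isolation and signal were also counted among listed genes at large. Of autosomal genes with a single unshared region at least 800 kb from the next, 14 of 136 (10.3%) were under 110 reads per kb, against 19 of 2904 (0.654%) of those with a nearer neighbour. The median was 509.7 reads per kb among the isolated genes and 682 among those with a nearer neighbour. The distance was chosen after the members' values were seen, and the members are part of these counts.

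**Figure D4:**
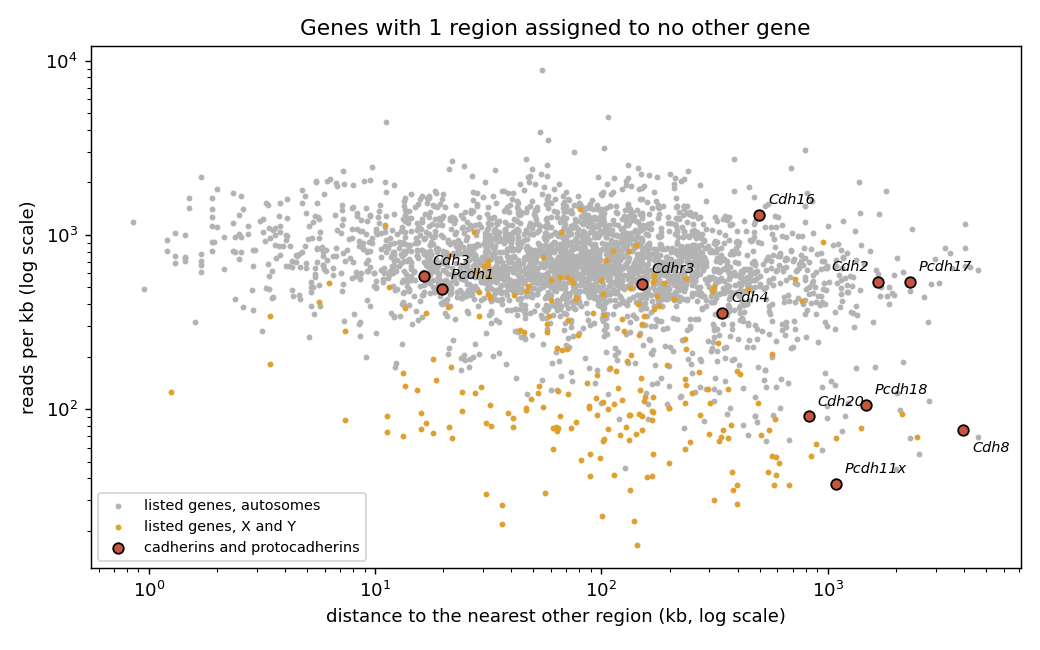
Reads per kb (log scale) against the distance to the nearest other region (kb, log scale) for genes with 1 region assigned to no other gene. The 11 members are named. Pcdh18, Cdh20, Cdh8 and Pcdh11x lie at the lower right, under 110 reads per kb and 825 kb or more from the next region, and Cdh2 and Pcdh17 lie above them at 538.

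Promoter windows, from 250 bases before to 50 after a gene's start, were read from RefSeq sequence of GRCm38.p6 for 27 members, 7 of them with a region. The regions are in another build, so it was not determined whether any of them covers these windows. The motif TGTGGT, bound by RUNX proteins, was searched on both strands (TGTGGT and ACCACA). Some genes have more than 1 window, and each window was counted: the 23 windows of members without a region belong to 20 genes. The 21263 windows of protein-coding genes belong to 17492 genes. The motif was present in 1 of 7 windows of members with a region (14.3%) and in 5 of 23 windows of members without one (21.7%). Among windows of protein-coding genes it was present in 3183 of 21263 (15.0%). The Dam target GATC, which reads the same on both strands, was present in 3 of 7 (42.9%), 16 of 23 (69.6%) and 46.6% of these windows. The windows below belong to the member of each class outside the clusters that had the most reads per kb among those with an entry. They are shown to make the 2 motifs visible, with TGTGGT or ACCACA and GATC in capitals. Cdh20, with 90.7 reads per kb, holds 1 TGTGGT and 0 GATC (chr1:104768270-104768569, plus strand). Cdhr3, with 523 reads per kb, holds neither (chr12:33092826-33093125, minus strand). Pcdh7, with 1195 reads per kb, holds 3 GATC and 0 TGTGGT (chr5:57717831-57718130, plus strand).
Cdh20: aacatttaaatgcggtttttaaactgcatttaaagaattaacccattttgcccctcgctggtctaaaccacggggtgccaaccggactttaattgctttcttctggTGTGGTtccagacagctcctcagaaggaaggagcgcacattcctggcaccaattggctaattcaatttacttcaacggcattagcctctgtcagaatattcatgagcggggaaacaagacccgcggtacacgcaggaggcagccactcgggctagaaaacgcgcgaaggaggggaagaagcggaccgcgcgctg
Cdhr3: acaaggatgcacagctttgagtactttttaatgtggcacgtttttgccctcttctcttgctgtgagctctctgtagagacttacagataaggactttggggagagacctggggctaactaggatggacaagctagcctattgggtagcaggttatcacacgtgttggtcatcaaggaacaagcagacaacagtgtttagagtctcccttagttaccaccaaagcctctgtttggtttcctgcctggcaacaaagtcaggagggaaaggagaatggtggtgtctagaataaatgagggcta
Pcdh7: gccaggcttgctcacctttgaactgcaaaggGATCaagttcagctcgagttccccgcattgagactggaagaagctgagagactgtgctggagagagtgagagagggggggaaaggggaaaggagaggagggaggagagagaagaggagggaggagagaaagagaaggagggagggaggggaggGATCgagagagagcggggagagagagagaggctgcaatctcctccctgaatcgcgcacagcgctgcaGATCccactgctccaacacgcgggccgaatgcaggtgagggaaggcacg
Cdh8, whose signal of 75.4 reads per kb was lower than that of Cdh20, has 0 TGTGGT in its window. With 1 of 7 windows holding the motif, signal and motif cannot be related. A match in these letters is a description and does not show where a factor sits.

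Of the catenins and other partners of cadherins 9 of 20 genes (45.0%) had a region, where genes of the same length classes had one in 34.8% of cases. Ptk7, a receptor-like protein of planar cell polarity, had 1 region at 1386 reads per kb, and Pard3, a polarity scaffold of cell junctions, had 8 regions with 30716 reads at 1146 reads per kb. Ctnnd1, the gene of p120 catenin, which keeps cadherins at the surface, had 844 reads per kb over 2 regions, and Vcl, the gene of the actin linker vinculin, had 842 over 2. Ctnnb1, the gene of beta-catenin, had 776 reads per kb in 1 region. Regions of Ptk7 and Ctnnb1 were also assigned to other genes. The remaining genes with a region were Pkp1, Pkp2, Plekha7 and Ctnna3, at 326 to 664 reads per kb. Ctnna1, the alpha-catenin gene of most tissues, and Jup, the gene of plakoglobin, had none.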

How the data were processed

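The series compared DamID-seq libraries of a Runx1b::Dam line and a Dam line, and its 1 deposited table gives no value per library, so the planned test between lines was not made. The authors deposited a read count for each gene, summed over its regions, and a signal, the read count per kb of those regions, per the file headers; the 2 columns agreed within 0.005. Coordinates are of mm9, the build named in the submitters' processing notes. No source used here gives the aligner, the region caller, the use made of the Dam libraries or the rule linking regions to genes. There are 0 further columns of values per sample.

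Symbols were matched to RefSeq (GRCm38.p6) by symbol, else by a unique synonym on the same chromosome, which placed 4586 of 4771 protein-coding genes (96.1%). That table gave names, order, overlap and lengths only. A region's own reads came from a gene with 1 region or by subtraction, possible for 3952 of 8133 regions (48.6%). The members, classes and lists were chosen with earlier results of these data known. All members with a region are named, and partner genes for the 6 with the most reads per kb, the others after their values were seen. The code for shared regions and Poisson intervals was checked on simulated Poisson counts. That check does not test whether the intervals suit amplified reads. Python 3.11.15, pandas 2.3.3 and scipy 1.17.1 were used.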

Additional observations from a re-analysis of the deposited data

How the results depend on the processing

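No paired analysis was possible because the table has no value per library, and for the same reason no replicate could be left out and neither edgeR nor another count model could be run. Of 97 alternative values, 62 stayed within the bound set for their kind. The bound was the 95% binomial interval for shares, the Poisson interval of the count nearest the median for medians, and 1.5 times for counts. This tally does not measure robustness. A filter could not lower the Pcdhb share of 0, and matching by exact symbol changed no share. Intervals on classes of few genes are wide, so the fall for other cadherins with 2 or more regions required stayed within its bound. So did the rise for Pcdhg with regions per 100 genes. Binomial intervals also treat genes as independent draws. The values that left their bound follow. With 2 or more regions required, the share with a region was 4.17% over all members, 0 for classical cadherins and Pcdha, and 16.7% for single protocadherins. Above the median reads per kb it took these same values. Among all protein-coding genes the 2 shares were 6.40% and 10.5%. With regions assigned to no other gene the Pcdha share was 0. Regions per 100 genes were 27.1 over all members and 83.3 for single protocadherins. Genes of the same length classes had a share of 31.1% for all members, 43.0% for Pcdha and 38.2% for Pcdhg, and clusters counted as loci gave 38.1% over all members. The median reads per kb, scaled by chromosome, was 469 for all members, 566 for other cadherins and 463 for single protocadherins. Without shared regions it was 915 for other cadherins, 486 for single protocadherins and 977 for the clusters, and over genes with 1 region it was 915, 296 and 608. Without members under 110 reads per kb, an alternative added after the data were seen, or with at least 500 reads, it was 538 for classical cadherins and 867 for single protocadherins, so whether single protocadherins lie above or below the median of listed genes (683) rests on Pcdh18 and Pcdh11x. Merging regions under 5 kb apart left 3 for Pcdhg. With 2 or more regions required, 4 cadherin partners, 2 superfamily genes, 0 repressors of Cdh1 and 0 factors of the clusters remained, and with unshared regions 1 and 0 of the last 2 lists. Depth limits the 4 weakest members most, with 39 to 223 reads each.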

Other observations

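Relatives of the cadherins outside the Cdh and Pcdh symbols had a region in 4 of 22 cases (18.2%), where genes of the same length classes had one in 29.6% of cases. Fat1, the gene of a giant atypical cadherin, had 3 regions at 1172 reads per kb (1145 to 1199) on chromosome 8, or 1.19 times the median of that chromosome. The others were Dsg2, a desmosomal cadherin gene, at 612 reads per kb, and the calsyntenin genes Clstn1 and Clstn2 at 593 and 305. Fat2, Fat3 and Fat4, the Dchs and Celsr genes of planar cell polarity and all 3 desmocollin genes had none.

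Of 5 transcription factor genes known to repress Cdh1, Zeb2 and Zeb1 had a region, at 717 and 414 reads per kb (the Zeb2 region was also assigned to Gm13476), and Snai1, Snai2 and Twist1 had none. That is 40.0% of the list, where genes of the same length classes had a region in 25.8% of cases. Of 8 genes whose proteins are known to act at the clustered protocadherins, 1 (12.5%) had one, against 26.3% of genes of the same length classes. It was Setdb1, a histone methyltransferase gene, at 633 reads per kb, whose region was shared with another gene. Ctcf, Rad21 and Smchd1 had none. Dsg2, Clstn1, Clstn2, Zeb1, Zeb2 and Setdb1 were named after their values were seen.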
